A study of Mus musculus with 6 samples.

Results

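The sarcomeric myosin heavy chains are the motor proteins of the thick filament in striated muscle. The 9 genes Myh1, Myh2, Myh3, Myh4, Myh6, Myh7, Myh7b, Myh8 and Myh13 were taken by symbol from the 24532 genes of the deposited table, and all 9 were found. Each member was read as a count, as a level per length, and as a share of the summed counts of the 9 genes in each library. All 9 passed the filter on low counts, so each was tested.

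Each sarcomeric myosin molecule joins a pair of heavy chains, whose heads split ATP and pull on actin and whose tails pack into the thick filament. A muscle fibre is typed by the heavy chain it makes. Myh7 marks slow type I fibres, Myh2 the fast oxidative type IIa, Myh1 the intermediate type IIx and Myh4 the fast glycolytic type IIb, which contracts fastest and predominates in the limb muscles of mice. Myh3 and Myh8 are the embryonic and perinatal chains, made in developing and regenerating fibres. Myh6 is the alpha chain of heart muscle, Myh13 is known from extraocular and laryngeal muscle, and Myh7b is an ancient relative of the slow chain.

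RNA came from the gastrocnemius, the large calf muscle, of C57BL/6 mice aged 12 weeks. The 3 control mice carried floxed Usp21 alleles and no Cre (the labels enter their genotype as Litter). The 3 knockout mice carried the same floxed alleles with Ckmm-Cre, a recombinase under the muscle creatine kinase promoter, which is active in muscle fibres, so other cells of the tissue keep the gene. Usp21 encodes a protease that removes ubiquitin from proteins, and the comparison asks what its loss in muscle changes. Every knockout and no control carried Cre, so loss of Usp21 and presence of Cre cannot be told apart. Nothing in the labels ties mice to litters, and the p-values reflect only how much these 6 libraries spread. Usp21 itself was at 19.2 to 19.3 CPM (counts scaled to library size by TMM) in controls and 7.19 to 9.08 CPM in knockouts, and total counts per library ran from 48658436 to 67332846.

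Position and sequence divide the family before any level is read. Coordinates are from RefSeq on GRCm38.p6 (mm10). On chromosome 11, 6 of the genes stand on the plus strand within 293 kb, in the order Myh3 (67078273 to 67102291), Myh2 (67171027 to 67197517), Myh1 (67200102 to 67224577), Myh4 (67237812 to 67260447), Myh8 (67277124 to 67308634) and Myh13 (67327103 to 67371587). Myh2 ends 2.58 kb before Myh1 begins, and 13.2 kb separate Myh1 from Myh4. Myh6 (54941921 to 54968017) and Myh7 (54970684 to 54994626) lie 2.67 kb apart on the minus strand of chromosome 14, and Myh7b (155611243 to 155634307) is alone on chromosome 2.

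The promoters of the adult fast genes are shown because Myh2, Myh1 and Myh4, the 3 most abundant members, share a long run of letters here. Each line holds the 250 bases before a start that RefSeq lists. Myh7 has 2 listed windows, and the more downstream was taken, so part of its line lies inside the gene span given above. The longest run common to Myh2, Myh1 and Myh4 is in capitals (20 bases, AATATTTCTAATTATATCCA), as is the sequence TATAAAAG, a TATA box. In Myh8 the capitals mark the 14 bases of that run which it shares with the other three. Myh1 and Myh8 also share a longer run, left in small letters (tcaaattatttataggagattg). Of all pairs of members, these 2 shared the most 12-base words, 14 of 239, against 13 for Myh1 and Myh4 and 10 for Myh1 and Myh2.
Myh2, chr11:67170777-67171026, plus strand: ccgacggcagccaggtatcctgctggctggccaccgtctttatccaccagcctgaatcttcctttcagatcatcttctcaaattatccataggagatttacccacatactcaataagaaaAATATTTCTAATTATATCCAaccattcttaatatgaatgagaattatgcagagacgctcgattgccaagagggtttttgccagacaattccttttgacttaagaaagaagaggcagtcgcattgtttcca
Myh1, chr11:67199852-67200101, plus strand: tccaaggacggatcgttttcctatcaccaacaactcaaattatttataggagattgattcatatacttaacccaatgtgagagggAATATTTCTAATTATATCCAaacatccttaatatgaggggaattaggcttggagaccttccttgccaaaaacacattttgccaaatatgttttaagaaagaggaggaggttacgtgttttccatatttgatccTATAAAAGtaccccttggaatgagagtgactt
Myh4, chr11:67237562-67237811, plus strand: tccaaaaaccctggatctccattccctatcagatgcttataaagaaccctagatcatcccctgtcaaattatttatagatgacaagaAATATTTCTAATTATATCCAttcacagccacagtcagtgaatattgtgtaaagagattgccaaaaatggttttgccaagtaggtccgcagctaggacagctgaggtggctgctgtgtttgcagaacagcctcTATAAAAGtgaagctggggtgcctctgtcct
Myh8, chr11:67276874-67277123, plus strand: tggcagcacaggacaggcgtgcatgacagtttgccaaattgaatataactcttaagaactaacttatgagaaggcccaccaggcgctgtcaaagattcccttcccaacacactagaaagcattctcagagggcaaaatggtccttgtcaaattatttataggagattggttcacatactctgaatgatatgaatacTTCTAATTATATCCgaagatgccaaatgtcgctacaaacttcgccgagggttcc
Myh7, chr14:54994550-54994799, minus strand: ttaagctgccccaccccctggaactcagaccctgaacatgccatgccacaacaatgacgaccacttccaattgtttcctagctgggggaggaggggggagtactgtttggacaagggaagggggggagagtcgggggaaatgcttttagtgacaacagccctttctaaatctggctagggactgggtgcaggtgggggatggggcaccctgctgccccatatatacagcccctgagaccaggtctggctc

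Of the 32851 windows of 300 bases in the RefSeq table, read on both strands, 3 held the 20-base run and they belonged to Myh1, Myh2 and Myh4. The 14-base run TTCTAATTATATCC was in 4 windows, those of the same genes and Myh8. TATAAAAG was in 1.70% of all windows and in those of Myh1 (position -32 from the start), Myh4 (-31), Myh3 (-29) and Myh2, where it lies 10 bases after the start that RefSeq lists. The E-box CANNTG, a letter pattern bound by myogenic factors, was in 72.3% of all windows and in 7 of the 9 members' windows, with no match in those of Myh1 and Myh2. The Myh7 window, 1 of 2 that RefSeq lists for the gene, held neither run nor TATAAAAG. These matches describe letters and name no site.

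The transcripts are close enough in sequence to bear on the counts. Over the longest protein-coding transcripts of GENCODE M21 (6016 to 6230 bases), Myh6 and Myh7 were 90.1% identical, Myh1 and Myh2 89.8%, Myh1 and Myh4 89.1%, and Myh4 and Myh8 86.9%. Of the 100-base windows of Myh7, 11.2% occurred letter for letter in Myh6. The share was 7.59% for Myh1 in Myh2 and 6.61% for Myh8 in any other member. No 50-base window of Myh7b occurred in another member. How the authors' pipeline divided reads that match more than 1 of these genes is not given in the sources used here. The values of Myh6 and Myh8, which stand far below a close relative, are therefore uncertain in that respect. The same holds for Myh1 and Myh2, where 9.73% and 9.17% of 100-base windows occurred in another member. Myh3 and Myh13 were less close, at most 79.9% and 79.0% identical to any member. With 1.15% and 3.45% of 100-base windows shared, their low values are uncertain too.

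Before the groups are compared, 1 control library has to be set apart. Control 3 held the lowest log2 CPM of all 6 libraries for 7 of the 9 members, the exceptions being Myh4 and Myh8, and for 11 of 12 slow-fibre genes. Over all 14109 genes tested, it was the lowest library for 21.7%. Knockout 2 was next lowest for the same 7 members. The log2 fold change of each member is therefore also given without control 3.

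**Figure D1:**
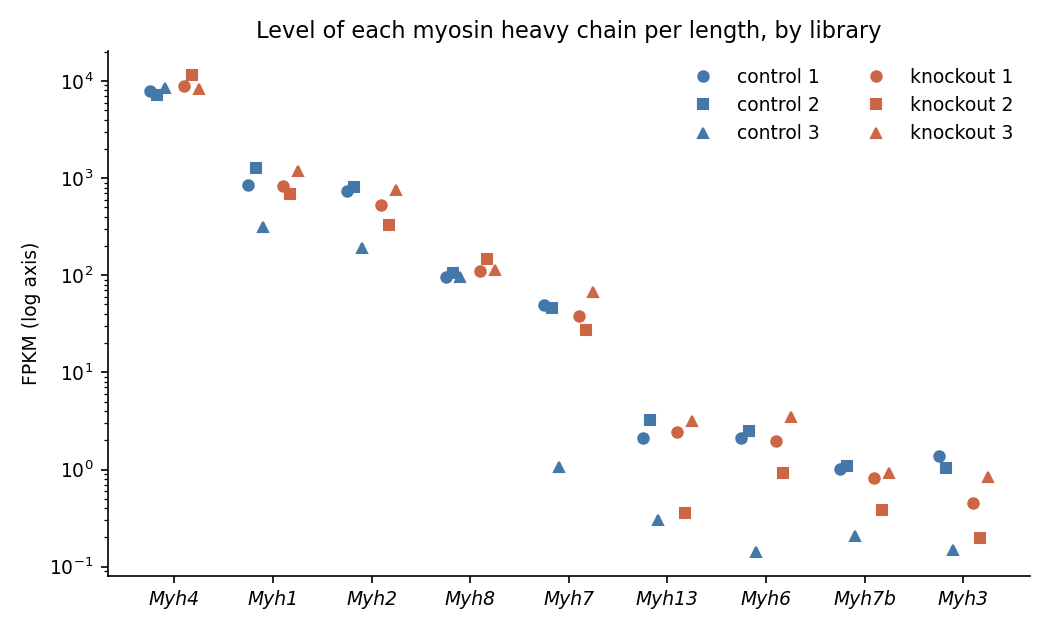
Level of the 9 genes in FPKM (fragments scaled to gene length and depth, log axis) in each library, with controls in blue, knockouts in orange and the replicate number shown by the symbol. Control 3 (blue triangles) lies near 1 FPKM for Myh7, where the other 5 libraries lie between 27.4 and 67.6 FPKM, and Myh4 and Myh8 vary least.

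Type IIb myosin dominated every library. In FPKM, which scales to gene length and so allows levels of different genes to be compared, Myh4 averaged 8722 ± 1531 over all 6 libraries (SD, n = 6). Next came Myh1 (852 ± 344) and Myh2 (560 ± 256), then Myh8 (111 ± 18.7) and the slow chain Myh7 (38.3 ± 22.6). In each of the 6 libraries these 5 genes stood in that order. Below them were Myh13 (1.93 ± 1.31), Myh6 (1.85 ± 1.17), Myh7b (0.734 ± 0.356) and Myh3 (0.678 ± 0.495), whose ranges overlapped. Myh13 exceeded Myh6 in 3 of 6 libraries, Myh6 exceeded Myh7b in 5 of 6, and Myh7b exceeded Myh3 in 5 of 6, so no neighbours in this lower part of the order kept their places in every library.

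Myh4 counted 46959, 41516 and 52314 CPM in controls 1 to 3 against 54574, 76120.3 and 50978 CPM in knockouts 1 to 3. Knockout 2 was highest, and knockout 3 lay below control 3, so the groups overlapped. The log2 fold change, knockout minus control, was 0.37 (SE 0.19; edgeR adjusted p = 0.516), 0.45 without control 3 and 0.17 without knockout 2. It was positive in each of the 6 fits that left out 1 library.

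Myh1, the IIx chain, stood at 5063, 7230.1 and 1952 CPM in controls against 5084, 4429 and 7172 CPM in knockouts. Myh2, the IIa chain, stood at 4460.2, 4711 and 1193 CPM in controls against 3243, 2182 and 4697 CPM in knockouts. Control 2 and knockout 3 were high for both genes, and control 3 and knockout 2 were low. The groups overlapped fully, with log2 fold changes of 0.23 for Myh1 (SE 0.43; edgeR adjusted p = 0.875) and -0.034 for Myh2 (SE 0.50; adjusted p = 0.989). Without control 3 these were -0.14 and -0.44. Myh1 and Myh2 kept a narrower relation to each other than to Myh4. The FPKM of Myh2 was between 48.8% and 87.2% of that of Myh1 (1.79-fold from lowest to highest), whereas Myh1 ran from 3.74% to 17.5% of Myh4 (4.67-fold). The part that shared reads play in these relations was not tested.

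Myh7, the slow chain, varied most between mice of the same genotype. Its values were 293, 268 and 6.63 CPM in controls 1 to 3 against 235, 179.6 and 416 CPM in knockouts 1 to 3. Control 3 was 44.3-fold below control 1, whereas the 3 knockouts lay within 2.32-fold. The pooled SD of log2 CPM within groups was 2.25, at the 99.8th percentile of all 14109 genes tested, against 0.25 for Myh4. Its log2 fold change came to 0.55 (SE 1.01; edgeR adjusted p = 0.872), and without control 3 it was -0.019. With this SE and 3 mice a group, a change of that size in Myh7 was not detectable.

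Myh8, the perinatal chain, was the 1 member whose groups did not overlap. It counted 576, 616 and 616 CPM in controls against 687, 977 and 701 CPM in knockouts, with every knockout above every control. Over all genes tested, 17.3% had groups that did not overlap and 8.38% had every knockout above every control (8.87% every knockout below), so 1 of 9 members is near the background. Its log2 fold change came to 0.39 (SE 0.14; unadjusted p = 0.0298, edgeR adjusted p = 0.384), 0.40 without control 3 and 0.20 without knockout 2. Myh8 kept a near-constant relation to Myh4, at 1.16% to 1.46% of its FPKM in all 6 libraries, and its share of the family varied by 1.16-fold from lowest to highest. The part that reads shared with close relatives play in Myh8 was not tested.

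Myh3, the embryonic chain, was at 8.24, 5.91 and 0.938 CPM in controls against 2.78, 1.29 and 5.15 CPM in knockouts, from 62 to 413 counts. Control 3 and knockout 2 were again lowest, and controls 1 and 2 were above every knockout. Its log2 fold change came to -0.70 (SE 0.74; edgeR adjusted p = 0.749). It was negative in each of the 6 fits that left out 1 library, from -1.29 without knockout 3 to -0.15 without control 1, and was -1.20 without control 3.

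**Figure D2:**
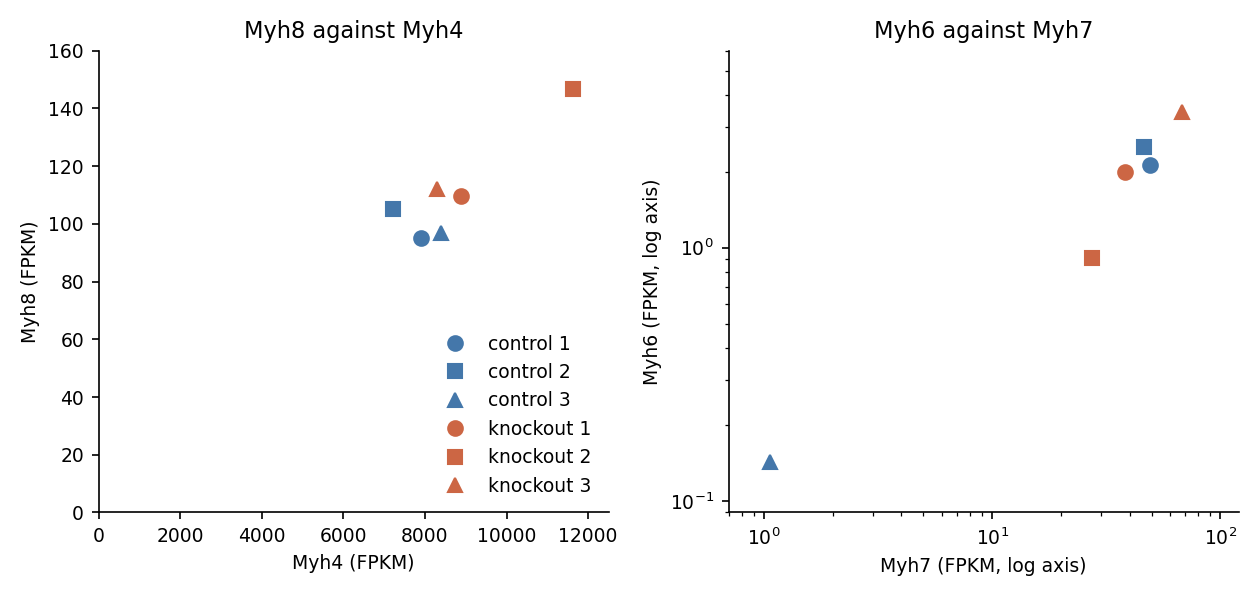
Levels in FPKM of Myh8 against Myh4 (left, linear axes from 0) and of Myh6 against Myh7 (right, log axes), 1 point per library. Knockout 2 is highest in both Myh4 and Myh8, and control 3 is lowest in both Myh6 and Myh7.

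The cardiac alpha chain Myh6, neighbour of Myh7, stood at 12.7, 14.4 and 0.893 CPM in controls against 12.3, 6.03 and 21.4 CPM in knockouts. Like Myh7, it was lowest in control 3 and highest in knockout 3, but its range was smaller, at 23.9-fold against 62.8-fold. Relative to Myh7 it was at 3.34% to 5.37% of the FPKM in 5 libraries and at 13.4% in control 3. Markers of heart muscle were low: of 6, Myl7, Nppa and Nppb had no count in any library. Tnni3 and Ryr2 had at most 34 and 17 counts. Tnnt2, the 1 that passed the filter, had 49 to 177 counts. The summed level of the list, most of it Tnnt2, was 2.41 to 2.96 CPM in controls against 0.971 to 2.88 CPM in knockouts. The log2 fold change of Myh6 was 0.50 (SE 0.84; edgeR adjusted p = 0.854) and -0.038 without control 3.

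Myh7b, whose sequence stands apart from the others, was at 6.06, 6.31 and 1.32 CPM in controls against 5.14, 2.54 and 5.70 CPM in knockouts. The difference was -0.028 on the log2 scale (SE 0.55; edgeR adjusted p = 0.991). Myh13 was at 12.0, 18.0 and 1.82 CPM in controls against 14.4, 2.24 and 18.7 CPM across knockouts (0.16, SE 0.87; adjusted p = 0.962). Without control 3 the differences were -0.47 for Myh7b and -0.35 for Myh13, the latter with its sign turned. In both genes control 3 and knockout 2 were below the other 4 libraries, and the groups overlapped.

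Myh6, Myh7 and Myh7b each carry a microRNA in an intron, the family known as the myomiRs, which repress targets by pairing with their seed (bases 2 to 8). The mature sequences, from RefSeq for GRCm38.p6 with the seed in capitals, are shown because they tie the 3 host genes together.
mmu-miR-208a-3p, in intron 29 of Myh6: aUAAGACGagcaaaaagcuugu
mmu-miR-208b-3p, in intron 31 of Myh7: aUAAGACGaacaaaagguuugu
mmu-miR-499-5p, in intron 19 of Myh7b: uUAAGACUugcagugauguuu
The first and second share the seed UAAGACG and the other has UAAGACU. Introns are numbered along the longest protein-coding transcript of GENCODE M21. Libraries from an mRNA kit do not measure mature microRNAs, and the 3 hairpin genes together had at most 3 counts in any library, so nothing is given on their levels.

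**Figure D3:**
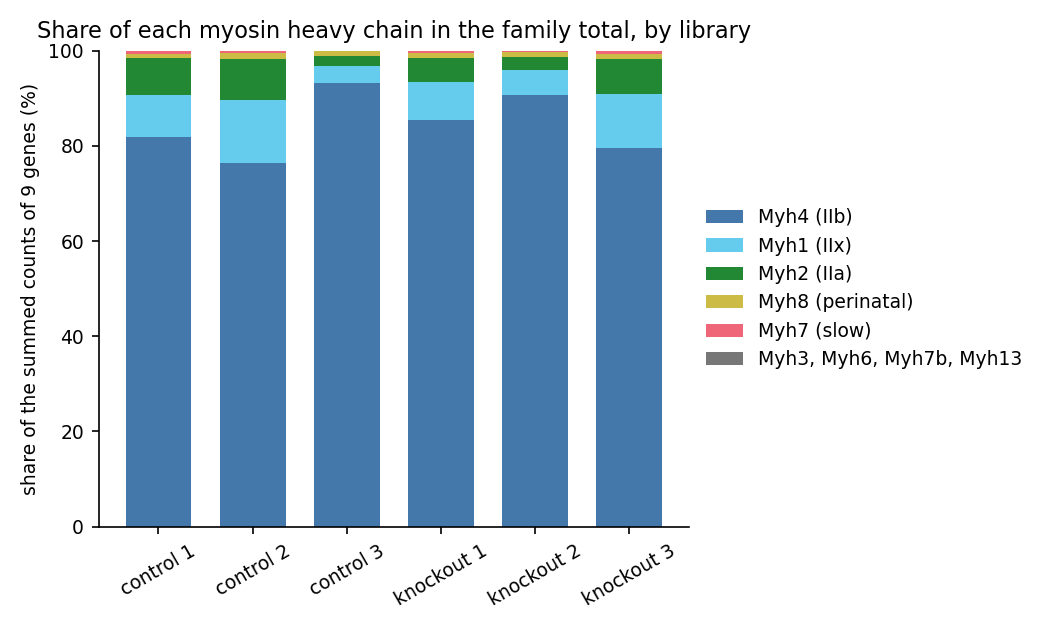
Stacked bars of each gene's share, in percent, of the summed counts of the 9 genes, with 1 bar per library. Myh4 takes 76.3% to 93.3% of every bar, and control 3 has the smallest shares of Myh1 and Myh2.

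As shares of the family total, Myh4 took 81.8%, 76.3% and 93.3% in controls 1 to 3 against 85.5%, 90.7% and 79.6% in knockouts 1 to 3. The group means were 83.8 ± 8.64% and 85.3 ± 5.55% (SD, n = 3 each), and a two-sided exact permutation test of their difference gave p = 0.8. Myh1 took 8.53 ± 4.91% in controls and 8.15 ± 2.97% in knockouts (exact permutation p = 0.9). Myh2 took 6.19 ± 3.54% and 5.01 ± 2.37% (exact permutation p = 0.7).

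Myh7 took 0.511%, 0.492% and 0.0118% in controls and 0.368%, 0.214% and 0.650% in knockouts (exact permutation p = 0.7). Myh8 took 1.08 ± 0.0670% and 1.11 ± 0.0466% (exact permutation p = 0.6), so the groups that did not overlap in its CPM overlapped in its share. The other 4 genes each took at most 0.0334% of the family in any library, with exact permutation p-values from 0.3 to 0.9. No share could have passed, since 3 against 3 libraries allow no p below 0.1. When control 3 was left out the difference in the Myh4 share was 6.19 percentage points, and it was -2.28 without control 2, so its direction rested on single mice.

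The groups did not overlap in the summed family, whereas they overlapped in the share of each member. The 9 genes took 5.91%, 5.80% and 5.51% of all counts in controls 1 to 3 against 6.36%, 7.85% and 6.36% in knockouts 1 to 3. Every knockout was above every control, and the exact permutation p was 0.1, the smallest this design allows. Of all single genes tested, 8.38% had every knockout above every control in log2 CPM. The mean difference was 1.12 percentage points, or 0.623 without knockout 2, the library with the most Myh4. In FPKM the sums were 8991 to 9654 in controls and 10389 to 12821 in knockouts. This total is mostly Myh4, whose own groups overlapped in CPM. Acta1, the main actin of skeletal muscle, was at 38727 and 39196 CPM and the muscle creatine kinase Ckm at 27999.9 and 27425 CPM in controls against knockouts, with log2 fold changes of 0.017 and -0.030. Lists of other muscle genes had medians of either sign, and none of their genes passed in edgeR. Of 15 tested genes that bind or fold the heavy chain, 11 were positive and 4 negative, with a median of 0.24. Of 14 fast-fibre genes, 9 were positive and 5 negative, with a median of 0.061 (-0.065 without control 2). Of 12 slow-fibre genes, 5 were positive and 7 negative, with a median of -0.15.

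**Figure D4:**
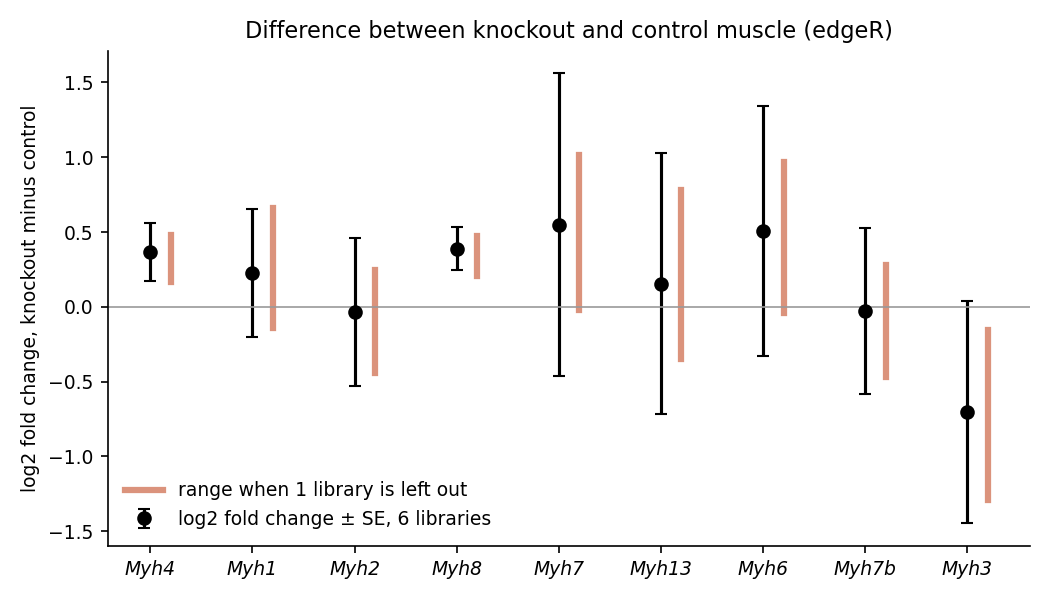
Log2 fold change of each gene, knockout minus control, from edgeR with its SE (black) and the range over the 6 fits that each left out 1 library (orange). Myh3, Myh4 and Myh8 keep their sign in all of these fits, and no member passed the threshold.

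None of the 9 genes passed an adjusted p under 0.05 in edgeR's quasi-likelihood test, where 0.0567% of the 14109 genes did (0.0354% higher and 0.0213% lower in knockouts). DESeq2's Wald test called 290 of the 14109 genes (210 higher and 80 lower in knockouts) and 0 of the 9. At an unadjusted p under 0.05 there was 1 member, Myh8, where 11.6% of all genes had such a p. Log2 fold changes were positive for 6 and negative for 3 members, with a median of 0.23, against -0.0037 over all genes tested. Without control 3 the median was -0.14. In 117 further fits of single members (13 alternatives for 9 genes) no adjusted p was below 0.189.

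Slow-fibre genes had their lowest level in control 3, as Myh7 did, in 11 of 12 cases, the exception being Pln. This list of 12 holds the slow troponins, light chains and calcium pump with associated proteins, and the light chains are the subunits that work beside the heavy chain. None of the 12 passed in edgeR, and 1 had an unadjusted p under 0.05, against 11.6% of all genes tested. Of the 12, 5 were positive and 7 negative. The median log2 fold change was -0.15, which became -0.53 without control 3 and 0.27 without control 2. Tnni1, the slow troponin I that holds the thin filament off, was at 30.2, 28.2 and 1.13 CPM in controls against 29.2, 24.3 and 39.2 CPM in knockouts. Tnnt1 and Tnnc1, the slow troponins T and C, had their lowest values in control 3 too, at 4.48 and 2.10 CPM, against at least 51.9 and 35.4 CPM elsewhere. Myl2 and Myl3, the slow regulatory and essential light chains, were at 19.3 and 31.9 CPM in control 3. They were next lowest in knockout 2, at 63.8 and 83.7 CPM. Atp2a2, the slow calcium pump, was at 67.2 CPM in control 3 and 218 to 400.0 CPM in the other libraries. The gene with the smallest p was Pln, which inhibits that pump. It was lowest in knockout 2, and control 3, at 1.88 CPM, lay above every knockout. Its means were 2.52 ± 0.573 CPM in controls against 1.56 ± 0.277 CPM with the knockout (SD, n = 3 per group; -0.69, SE 0.25, edgeR adjusted p = 0.383). Next was Tpm3, the slow tropomyosin, at 0.52 (adjusted p = 0.694) and at 0.11 without control 3, where its level was 32.0 CPM against 108 to 157 CPM elsewhere.

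**Figure D5:**
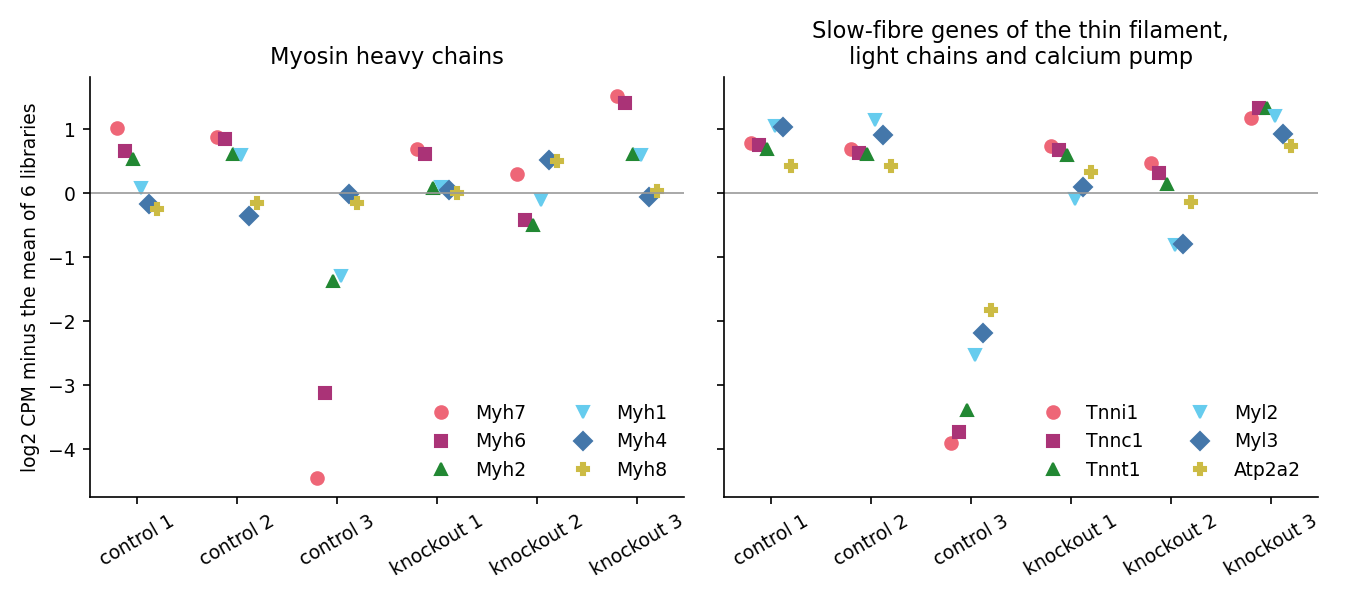
Log2 CPM of 6 myosin heavy chains (left) and 6 slow-fibre genes (right) in each library, minus the gene's mean over the 6 libraries. In control 3, Myh7 is at -4.44 and Tnni1 at -3.90, while Myh4 is at -0.013 and Myh8 at -0.15.

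The fast-fibre genes were steadier. Of 14, none passed and 0 had an unadjusted p under 0.05 in edgeR, against 11.6% of all genes tested. Among them, 9 were positive and 5 negative, and the median was 0.061 (0.24 without control 3, and -0.065 without control 2). Control 3 was the highest library for 9 of the 14, against 22.3% of all genes, and control 2 was the lowest for 12. Tnni2 and Tnnt3, fast troponins, were at -0.010 and -0.0030 on the log2 scale, Atp2a1, the fast calcium pump, at 0.039, Mylpf, the fast regulatory light chain, at 0.14, and Pvalb, a calcium buffer of fast fibres, at 0.11. The smallest p-values were those of Myoz3 (0.26, edgeR adjusted p = 0.473) and Mylk2, the kinase of the regulatory light chain (-0.19, adjusted p = 0.576).

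Proteins that bind or fold the heavy chain gave 15 tested genes of 17, with 11 positive, 4 negative and a median of 0.24 (0.086 without knockout 2). None passed in edgeR, and 5 had an unadjusted p under 0.05, against 11.6% of all genes tested. The smallest p-values were those of Trim63, a ubiquitin ligase that targets thick filament proteins, at 313 ± 52.5 CPM in controls against 686 ± 185 CPM with the knockout (SD, n = 3 per group; 1.13, SE 0.21, edgeR adjusted p = 0.204) and of Myom2, an M-band protein that links thick filaments, at 1536 ± 140.1 and 2072 ± 208 CPM (0.43, SE 0.11, adjusted p = 0.312). In both, every knockout was above every control, as was so for 4 of the 15, against 8.38% of all genes tested. Smyd1 and Unc45b, partners of Hsp90 in folding the myosin head, were at 0.26 (adjusted p = 0.406) and -0.036 (adjusted p = 0.943; 0.10 without control 3).

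The myosin-binding proteins C have a slow and a fast form in skeletal muscle. Mybpc1, the slow form, was at 1427, 1992 and 409 CPM in controls against 1118, 1161 and 1977 CPM in knockouts, lowest in control 3. Mybpc2, the fast form, was at 3991 to 5998 CPM in controls against 5185 to 6949 CPM in knockouts. The cardiac form Mybpc3 had no count in any library. Myom3, the M-band protein of slower fibres, was at 13.1 CPM in control 3 and 50.8 to 131 CPM elsewhere.

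Of 37 regulators of fibre type, none passed in edgeR, and 7 had an unadjusted p under 0.05, against 11.6% of all genes tested. Among the 37, 20 were positive and 17 negative, and the median was 0.054 (-0.033 without control 3). Ppargc1a, a coactivator that promotes oxidative fibre genes, had the smallest p and stood at 56.7, 57.1 and 34.0 CPM in controls against 422, 293 and 87.7 CPM across knockouts (2.44, SE 0.52, edgeR adjusted p = 0.241). Every knockout was above every control in Ppargc1a, as in 8.38% of all genes tested. Its relation to the heavy chains was not tested. Ppard, a nuclear receptor of fat oxidation, was at 0.34 (adjusted p = 0.363). Sox6 and Tbx15, transcription factors tied to fast fibres, were at 0.054 (adjusted p = 0.867) and 0.12 (adjusted p = 0.763). The long noncoding RNA 2310065F04Rik lies between Myh3 and Myh2 on the opposite strand (67112461 to 67120080). It was at 207 ± 25.9 CPM in controls against 186 ± 9.89 CPM across knockouts (-0.15, adjusted p = 0.634; -0.049 without control 3). Myhas, an antisense transcript between Myh1 and Myh4 that overlaps the end of Myh1, was at 51.5 ± 18.0 and 38.9 ± 1.67 CPM (-0.41, adjusted p = 0.542; named after its values were seen). The kit keeps the strand, but whether counting used it is not given in the sources used here.

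The developmental myosins can be read beside other genes of regenerating or denervated fibres. Of 11 listed, 9 were in the table and 8 were tested. None passed in edgeR, and 1 had an unadjusted p under 0.05, against 11.6% of all genes tested. Of the 8, 7 were positive and 1 negative, with a median of 0.23 (0.098 without control 2). Actc1, the cardiac actin that skeletal muscle makes during development, was at 117, 65.0 and 287 CPM in controls against 387, 637 and 277 CPM across knockouts (1.47, SE 0.54, edgeR adjusted p = 0.383; 2.25 without control 3). Chrna1, an acetylcholine receptor subunit, was at 0.27 (adjusted p = 0.542). Heavy chains outside the 9 members were also measured: of Myh9, Myh10, Myh11 and Myh14, 2 were positive and 2 negative. None passed in edgeR, and 1 had an unadjusted p under 0.05, against 11.6% of all genes tested. Myh9, a nonmuscle chain, was at 77.0 ± 5.32 and 103 ± 21.7 CPM (0.41, adjusted p = 0.385) and Myh11, the smooth muscle chain, at 0.23 (adjusted p = 0.501). Myh15 had no count.

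The genes most like each member over the 6 libraries were found by the root mean square difference of log2 CPM after each gene's mean was taken off, for the 7 members that ranged over more than 1 on that scale. For Myh7 the closest of 14100 other genes were Tnni1 (0.30), Tnnc1 (0.34) and Tnnt1 (0.48), then Rps27 (0.52) and Sbk3 (0.54), against a median of 2.03 over all genes. Rps27, a ribosomal protein gene, was at 1.33 CPM in control 3 and 100.2 to 114 CPM in the other libraries. For Myh6 they began with Tnnt1 (0.27) and Tnnc1 (0.40), followed by Cyp2ab1 (0.44), Myl2 (0.46) and Wnt16 (0.48).

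Myh2 was closest to Mb, the oxygen-binding myoglobin (0.059), Ldhb, a lactate dehydrogenase subunit of oxidative fibres (0.11), Inpp5j (0.12), Bdh1, an enzyme of ketone body use (0.15), and Ankrd2 (0.16), against a median of 0.75. Mb stood at 3406, 3734 and 874 CPM in controls against 2385, 1532 and 3350.0 CPM in knockouts. Myh7b had Bdh1 (0.078), Mb (0.15) and Ldhb (0.19) as its closest. Myh1 was closest to Rab15 (0.11), Paqr9 (0.13) and Actn2, an alpha-actinin of the Z-disc (0.15), with Zdhhc23 and Zfp827 both at 0.16. Myh3 was closest to Myoz2 (0.27), Hpgds (0.30) and Fzd10 (0.31), and Myh13 to Pilrb1 (0.31), which had a level of at most 0.237 CPM. Control 3 was the lowest library for all 7 of these members, so it enters every such likeness; its part was not tested.

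Markers of other cell types are given beside the heavy chains. Summed over 7 genes, fibroblast markers were at 1440 to 2253 CPM in controls against 2204 to 2631 CPM in knockouts. The sum was lowest in control 3, as were 4 of the 7 genes, and the other 3 were lowest in control 1. All 7 had a positive log2 fold change, and none passed the threshold in edgeR. An unadjusted p under 0.05 was found for 3 of the 7, against 11.6% of all genes tested. Endothelial markers (4 genes) were at 210.2 to 280 CPM and 223 to 242 CPM. Their sum was lowest in control 3 as well, with 2 of the 4 genes lowest there and 2 in knockout 2. Macrophage markers (5 genes) ran from 31.7 to 54.9 CPM and from 33.6 to 51.8 CPM. Smooth muscle markers (4 genes) ran from 70.1 to 88.3 CPM and from 86.3 to 107 CPM. The sum of adipocyte markers (4 genes) was 55.4 CPM in control 3 and 65.2 CPM in knockout 2, the libraries low in Myh2, and between 12.3 and 27.1 CPM elsewhere. Knockout 2 was the highest library for 3 of the 4, but Lep was at 1.78 CPM there and 5.44 CPM in control 1. Log2 fold changes were positive for 2 of the 4 and negative for 2. Schwann cell markers (4 genes) ran from 64.9 to 183 CPM and from 42.3 to 229 CPM. Apart from Myl7, Nppa and Nppb, no marker was at 0 in all libraries. The part of these cells in the heavy chain values was not tested, and in whole muscle fewer fibres of a type and less RNA per fibre cannot be told apart.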

How the data were processed

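Libraries of 6 gastrocnemius samples were made with a stranded mRNA kit, per the labels. Per the file headers, the table gives read counts per gene, which the authors left raw (whole numbers). It also gives FPKM and TPM columns made by the authors, per its header, of which TPM entered no result. The tools in the submitters' processing notes are StringTie 1.3.4d, Bowtie2 2.3.4.1, FastQC 0.11.7 and bcl2fastq 2.20.0, and the build is mm10; no roles or settings are stated there. Columns of samples outside the series numbered 0.

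The test was edgeR 4.0.16 (R 4.3.3): filterByExpr with a minimum count of 10, TMM, the quasi-likelihood fit, and Benjamini-Hochberg adjustment over the 14109 genes left, with a threshold of 0.05. SEs came from the F statistic; log2 CPM used a prior count of 2. Shares and the family total were compared by two-sided exact permutation of libraries. The script was tested on simulated data. A gene at 0 may have had up to 3 counts (0.0454 to 0.0598 CPM, counting error only).

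Named genes were the members, in each list the 2 with the smallest p and a fixed set, and the genes most like a member. A gene of the fixed set is not reported here. Members and lists were chosen with earlier results of these data known. Alternatives were DESeq2 1.42.0 (size factors; Wald test), no filter, limma 3.58.1 on log2 of FPKM plus 1 or 0.1, a replicate block, and leaving out libraries. Same-numbered libraries did not deviate together (correlations of -0.0082, -0.19 and -0.098), so the numbers were not taken to pair mice. Sequences are from RefSeq (GRCm38.p6), with windows found for 9 of 9 members.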

Additional observations from a re-analysis of the deposited data

How the results depend on the processing

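No member passed the threshold under any alternative run. The count of genes past the threshold, 8 with all libraries, was 290 with DESeq2's Wald test, 1 with FPKM plus 1, 1 with FPKM plus 0.1, 0 with the replicate block in edgeR (1164 genes at an unadjusted p under 0.05) and 1 without control 3 and knockout 2 together (chosen after seeing the data); it ran from 1 (without control 3 or without knockout 2) to 141 (without knockout 3). The replicate block changed no member's call.

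The sign of Myh2 turned with FPKM plus 1 (0.064), FPKM plus 0.1 (0.065) and the replicate block (0.082), that of Myh7b with FPKM plus 0.1 (0.055) and the replicate block (0.13), and that of Myh1 without control 3 and knockout 2 together (-0.0023). Leaving out single libraries, log2 fold changes ran from -0.14 to 0.66 for Myh1, -0.44 to 0.25 for Myh2, -0.038 to 0.97 for Myh6, -0.019 to 1.02 for Myh7, -0.47 to 0.28 for Myh7b and -0.35 to 0.78 for Myh13, each lowest without control 3 and highest without control 2, except Myh7 (highest without control 1).

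Differences in share, in percentage points, ran from -2.91 to 2.00 for Myh1, -3.21 to 0.057 for Myh2, -2.28 to 6.19 for Myh4, -0.0044 to 0.0095 for Myh6, -0.091 to 0.17 for Myh7, -0.0044 to 0.00030 for Myh7b, -0.0034 to 0.061 for Myh8 and -0.0088 to 0.0068 for Myh13. The family total stayed higher in knockouts, by 0.507 points without control 3 and knockout 2 together. Apart from these libraries, the causes were not tested. With 3 mice a group and the spread of Myh7, moderate differences were not detectable.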
